A study of Mus musculus with 18 samples.

Results

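The 10 genes described here encode structural proteins of the vascular basement membrane: the laminin chains Lama2, Lama4, Lama5, Lamb1, Lamb2 and Lamc1, the nidogens Nid1 and Nid2, and the heparan sulfate proteoglycans perlecan (Hspg2) and agrin (Agrn). They were taken by gene symbol from 3 deposited expression tables, which together list 14068 genes. In the tables' coordinates (mm10) the plus-strand genes are Lama4 at chr10:38965515-39110188, Lamb1 at chr12:31265294-31329639, Lamb2 at chr9:108479862-108490530, Nid1 at chr13:13437602-13512275, Nid2 at chr14:19751257-19811787, Hspg2 at chr4:137468803-137570630. The minus-strand genes are Lama2 at chr10:26981285-27616942, Lama5 at chr2:180176373-180225859, Lamc1 at chr1:153218922-153332786, Agrn at chr4:156165290-156197488. All 10 were listed for choroid and for brain, and 8 for retina, where Lama2 and Nid2 were missing under the authors' listing minimum. The mice were labelled Tie2-cre+ and NuTRAP+ in all 6 groups, and the tables' columns label every library WT without defining it. Tie2-cre is active in endothelium and also in the blood lineage, and NuTRAP, after recombination by Cre, fuses GFP to Rpl10a, a protein of the large ribosomal subunit. Translating ribosome affinity purification (TRAP) then recovers the mRNA on the tagged ribosomes with anti-GFP. For choroid, retina and brain alike there was a positive group (RNA pulled down) and an input group (RNA of the same cleared lysate), each of 3 libraries numbered 421, 953 and 960, 18 in all. Choroid was collected with the retinal pigment epithelium (RPE), both eyes were pooled for a choroid or retina sample, and part of 1 brain was used for a brain sample. The sources used here give no age or sex. No library without the transgenes was analysed here.

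Laminins are cross-shaped trimers of 1 alpha, 1 beta and 1 gamma chain, secreted and assembled into a sheet on the cell surface, where integrins and dystroglycan bind the alpha chain. Nidogens link the laminin sheet to the collagen IV network, and perlecan and agrin add heparan sulfate chains that hold growth factors and water. In brain and retina, endothelial cells are known to make laminins with the alpha 4 and alpha 5 chains, while astrocytes, pericytes and fibroblasts contribute the alpha 2 chain.

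Depth, as the sum over listed genes, ran from 2649095 to 4587921 counts in choroid positive libraries, 6260958 to 11071373 in retina positive and 18618427 to 28277853 in brain positive. Choroid inputs held 8807306 to 14484068 counts, retina inputs 15243098 to 21521130 and brain inputs 9596740 to 32064355. Levels are given as CPM, counts scaled to the same library total after TMM adjustment, within each tissue unless said otherwise. All 8 endothelial markers (Pecam1, Cdh5 and others) were higher in the positive fraction of each tissue. Their summed level was 4340 to 5910 CPM in choroid positive and 277 to 526 CPM in choroid input libraries, 1620 to 2990 and 86.6 to 115 CPM in retina, and 3690 to 5480 and 92.4 to 138 CPM in brain. Leukocyte markers were also higher (6 of 7 in choroid, 5 of 5 in retina, 7 of 7 in brain), with a sum of 14400 to 21200 CPM in choroid positive and 1520 to 2560 CPM in choroid input libraries. Their part in the results below was not tested. None of the listed markers of endothelium, mural cells, fibroblasts, astrocytes and Müller glia, RPE, leukocytes or myelinating glia was at 0 in any library. In a bulk lysate, fewer cells of a type and less RNA per cell cannot be told apart.

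Some libraries stood apart from their group. Retina positive 421 had the highest level of all 8 listed basement membrane genes, and its mural marker sum was 423 CPM, against 44.2 and 24.8 CPM in positives 953 and 960 (inputs 25.3 to 27.4 CPM). Those 3 listed markers are Pdgfrb, Rgs5 and Notch3. Retina positive 421 also had the highest endothelial marker sum, 2990 CPM against 2060 CPM in 953 and 1620 CPM in 960. Its leukocyte marker sum was the lowest, 146 CPM against 466 and 589 CPM. The part of these cells in the member levels was not tested. The fibroblast marker sum was 276 CPM in retina positive 421, against 137 CPM in 953 and 66.5 CPM in 960. Only Pdgfra, Col6a1 and Col6a2 of that list are listed for retina, and so in every comparison across the 3 tissues. Pdgfra itself was not highest in 421, with 7.41 CPM there, 9.2 CPM in 953 and 5.3 CPM in 960. In choroid, both libraries of 421 had a higher summed level of markers of myelinating glia, with 1380 CPM in positive 421 against 52.2 and 92.8 CPM, and 4890 CPM in input 421 against 190 and 263 CPM. Brain input 960 was the lowest input for 9 of the 10 genes and the shallowest brain library.

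More members were higher than lower in the pulled-down RNA against the lysate in each tissue, by counts given below, and the genes called lower were Lama2 and Lamb1, in choroid and in brain. A gene was called higher or lower at an adjusted p under 0.05 in edgeR's quasi-likelihood test with Benjamini-Hochberg adjustment over all listed genes. In choroid, 6 of 10 were higher and 2 lower, where 21.1% of all genes were called higher and 20.9% lower. In retina, 7 of 8 were higher and 0 lower (18% and 13.7% of all genes; the 1 gene left, Lamb1, had an unadjusted p of 0.0879, and DESeq2 also called 0 lower). In brain, 5 of 10 were higher and 2 lower (21.2% and 18.3% of all genes). The median log2 fold change of the listed members was 1.14 in choroid, 2.69 in retina and 1.85 in brain, beside −0.03, −0.01 and −0.07 over all genes. These counts and medians are descriptions, since some members are listed through 1 fraction only: the tables required a raw value of 50 in every library of either fraction, and a gene listed through its high fraction alone was selected for the difference. That holds for Lama4 and Nid1 in retina and for Lama4, Lama5, Nid1, Nid2 and Hspg2 in brain, listed through the positive fraction, and for Lama2 in choroid, listed through the input. In brain 1 input library, 960, fell short for each of the 5. The adjusted p-values of these genes in those tissues, given below, are descriptions for the same reason. Of the members that reached 50 in every library of both fractions, 6 of 9 were higher and 1 lower in choroid, 5 of 6 were higher in retina, and 1 of 5 was higher and 2 lower in brain. The shares over all genes that reached it in both fractions are not given here, so these counts have no background.

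Leaving out libraries changed some counts. Without retina positive 421, 7 of 8 were higher (19.3% of all genes higher, 16.3% lower), but without both retina libraries of 953 it was 4 of 8 (5.84% of all genes higher), with Lama5, Lamc1 and Agrn lost. Without both choroid libraries of 421 the counts in choroid were 6 and 2 (20.7% and 20.2%), and without both of 953 4 of 10 were higher (9.10% of all genes), with Lamc1 and Nid1 lost. Both brain calls of lower, Lama2 and Lamb1, were lost without both libraries of 421 or of 953. Without brain input 960, 8 of 10 were higher and 2 lower, with 36.1% of all genes higher and 35.9% lower, and Lamc1, Nid1 and Agrn were called too. The log2 fold changes in brain were then 2.72 for Lama4, 2.28 for Lama5, 3.01 for Lamb2, 2.46 for Nid2, 3.69 for Hspg2, −1.74 for Lama2 and −0.77 for Lamb1.

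**Figure D1:**
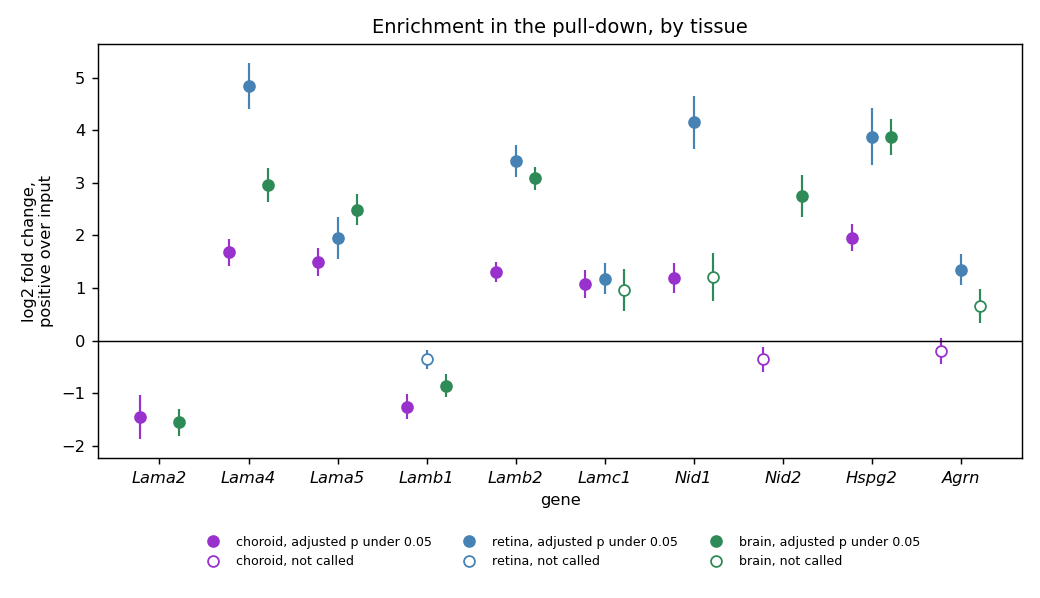
Log2 fold change of positive over input (vertical axis, points with standard error bars) for each gene (horizontal axis) in choroid, retina and brain, 3 libraries per fraction. Filled points are called at an adjusted p under 0.05 and open points are not. Lama4, Lama5, Lamb2 and Hspg2 are filled and above 0 in all 3 tissues, and Lama2 and Lamb1 are below 0 wherever they are listed.

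Of the alpha chains, Lama4, the short chain that lacks the N-terminal polymerization domain, was enriched in all 3 tissues. In choroid it had 82.1, 65.8 and 55.5 CPM in positives 421, 953 and 960, against 27.7, 20.3 and 15.5 CPM in the inputs (log2 fold change 1.68 ± 0.26 SE, adjusted p = 0.00151). In retina it had 60.0, 27.9 and 23.0 CPM in positive libraries, against 1.77, 1.21 and 0.911 CPM in inputs (4.84 ± 0.44, adjusted p = 6.66e-05). Every positive library was above every input in both tissues, and in retina the lowest positive still lay far above the highest input. In brain Lama4 had 41.8, 44.2 and 28.0 CPM in positive libraries, against 5.70, 5.81 and 2.71 CPM in inputs (2.96 ± 0.33, adjusted p = 0.000655). The retina inputs rest on 17 to 27 counts per library, under the listing minimum that the positive libraries met. Lama4 was listed for brain through the positive fraction alone too, so its adjusted p-values in retina and brain are descriptions. Without retina positive 421 the log2 fold change in retina was 4.30 (adjusted p = 2.27e-06).

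Lama5, the long alpha chain shared by endothelial and epithelial basement membranes, was also higher in each tissue, with less spread between tissues. It had 178, 122 and 140 CPM in choroid positive libraries, against 71.0, 50.7 and 34.5 CPM in inputs (1.50 ± 0.27, adjusted p = 0.00324). In brain it had 42.6, 47.3 and 31.2 CPM in positive libraries, against 8.87, 7.74 and 4.55 CPM in inputs (2.49 ± 0.29, adjusted p = 0.000774). Positive and input libraries did not overlap in either tissue. Lama5 was listed for brain through the positive fraction alone, so its adjusted p there is a description. The retina values were 164, 70.7 and 47.1 CPM in positive libraries, against 24.8, 21.1 and 26.3 CPM in inputs (1.96 ± 0.40, adjusted p = 0.00705). Positive 421 was the highest, and without it the log2 fold change was 1.28 (adjusted p = 0.000558). The call was lost without both libraries of 953 (2.04, adjusted p = 0.106).

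Lama2, the alpha chain of muscle and of the glial and mural side of brain vessels, ran the other way. It had 17.7, 7.10 and 6.78 CPM in choroid positive libraries, against 42.6, 22.9 and 23.5 CPM in inputs (−1.45 ± 0.42, adjusted p = 0.0243), and the groups did not overlap. In brain it had 4.46, 4.57 and 5.76 CPM in positive libraries, against 17.2, 15.8 and 10.3 CPM in inputs (−1.55 ± 0.25, adjusted p = 0.00334), again with no overlap. Choroid 421 was the highest library in both fractions, and without positive 421 the log2 fold change was −2.10 (adjusted p = 0.00452). The choroid values rest on 16 to 78 counts in positive libraries, with the gene listed through the input alone, and the call was lost without positive 953 (adjusted p = 0.0859), positive 960 (0.0788), input 421 (0.0733), or both libraries of 953 (0.125) or 960 (0.0862). In brain it was lost without both libraries of 421 (0.0768) or of 953 (0.0740). Markers of fibroblasts (7 of 8 lower in choroid, 5 of 6 in brain) and of astrocytes and Müller glia (5 of 8 lower in each) moved the same way as Lama2. Over all genes 20.9% were lower in choroid and 18.3% in brain. Mural markers were mixed: 6 of 10 were lower and 1 higher in choroid, and 2 of 8 were lower in brain, near the share over all genes. Their summed level overlapped in choroid (440 to 494 CPM in positive, 410 to 694 CPM in input libraries) but not in brain (42.9 to 55.2 and 58.5 to 92.5 CPM). Genes of the RPE list were lower too (6 of 6 in choroid, 4 of 4 in brain). Of the myelinating glia list, 4 of 4 were lower in brain, but 1 of 3 in choroid, with 2 not called. Rpe65, Lrat and Best1 are not listed for brain, so the RPE list does not mark RPE there. The astrocyte and Müller glia list shares Rlbp1 with the RPE list, and choroid was collected with RPE. That glial list summed to 5920 to 7130 CPM in choroid inputs. Gfap was 950, 62.5 and 55.1 CPM in choroid inputs 421, 953 and 960, and Aqp4 105, 40.7 and 12.4 CPM. In choroid the list thus does not mark astrocytes alone. The fibroblast marker sum was 520 to 828 CPM in choroid positive and 1630 to 2230 CPM in choroid input libraries, and 44.9 to 60.9 and 122 to 164 CPM in brain. The part of these cells in the Lama2 result was not tested.

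The ratio of 2 genes within a library does not depend on scaling, and it showed how the set of alpha chains differed between fractions. Per kilobase of exon, Lama2 was at 0.0871 of the Lama4 level in choroid positive libraries and at 0.850 of it in choroid inputs, and at 0.0811 in brain positive libraries and 1.94 in brain inputs (geometric means of 3). The log2 difference averaged −3.93 over both tissues (exact permutation test with labels permuted within tissue, two-sided, p = 0.005, the smallest it can give, and 0.00667 adjusted over the 4 ratios tested). All 6 pairs of fractions moved this way. As a share of the summed level per kilobase of the 3 alpha chains, Lama2 made up 5.13 ± 1.96% in brain positive and 51.7 ± 3.04% in brain input libraries (SD, n = 3). Lama4 made up 60.6 ± 2.11% and 26.8 ± 3.03%. In choroid positive libraries Lama5 (51.3 ± 3.76%) and Lama4 (44.6 ± 3.72%) came close to each other, and Lama2 was at 4.05 ± 1.50%, against 27.2 ± 3.73% in input. The ratio of Lama4 to Lama5 was higher in the positive fraction by 1.22 on the log2 scale over the 3 tissues (exact permutation p = 0.00075, adjusted 0.0015). That mean is uneven: the difference was 2.98 in retina, 0.51 in brain and 0.16 in choroid, where the library ratios overlapped. Within 1 tissue, 3 libraries against 3 cannot give an exact p below 0.1. Lama2 in choroid was listed through the input alone. Lama4 in retina, and Lama4 and Lama5 in brain, were listed through the positive fraction alone. These genes were selected through the side where they are high, so both p-values are descriptions and no independent evidence of a difference. The permutation also treated libraries of 1 lysate as unpaired.

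The beta chains parted in every tissue. Lamb2, a beta chain of synaptic, glomerular and vascular laminins, had 541, 451 and 522 CPM in choroid positive libraries, against 244, 187 and 183 CPM in inputs (1.30 ± 0.19, adjusted p = 0.001). In retina it had 217, 116 and 94.9 CPM in positive libraries, against 14.4, 13.8 and 11.8 CPM in inputs (3.42 ± 0.30, adjusted p = 5.73e-05; 2.98 without positive 421). In brain it had 224, 285 and 183 CPM in positive libraries, against 30.4, 26.8 and 23.7 CPM in inputs (3.09 ± 0.22, adjusted p = 8.64e-05). No positive library overlapped with an input, and no single library or alternative in any tissue ended the call.

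Lamb1, a beta chain of early and of many other basement membranes, had 34.9, 61.4 and 62.3 CPM in choroid positive libraries, against 129, 133 and 114 CPM in inputs (−1.25 ± 0.23, adjusted p = 0.00356). In brain it had 12.5, 8.58 and 13.2 CPM in positive libraries, against 21.2, 18.1 and 22.6 CPM in inputs (−0.85 ± 0.21, adjusted p = 0.0189). The groups were apart in both tissues, though in brain the call was lost without positive 421 (adjusted p = 0.0581), positive 953 (0.0541), input 421 (0.0586), or both libraries of 421 (0.160) or 953 (0.120). The retina values were 16.5, 14.1 and 12.3 CPM in positive libraries, against 15.8, 17.2 and 21.5 CPM in inputs, which overlap (−0.35 ± 0.18, adjusted p = 0.174).

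As a ratio, Lamb1 to Lamb2 was lower in the positive fraction in all 9 pairs of libraries, with a mean log2 difference of −3.41 (exact permutation p = 0.00025, the smallest it can give, adjusted 0.001). The differences were −2.60 in choroid, −3.67 in retina and −3.96 in brain. Per kilobase, Lamb2 made up 90.7 ± 3.01% of both beta chains in choroid positive libraries and 62.7 ± 3.49% in inputs (SD, n = 3). It made up 90.5 ± 2.32% and 43.4 ± 6.50% in retina, and 95.2 ± 1.86% and 57.5 ± 4.72% in brain. The Lamb2 share lay between 88.4% and 97.2% in the 9 positive libraries and between 36.2% and 66.3% in the 9 inputs.

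**Figure D2:**
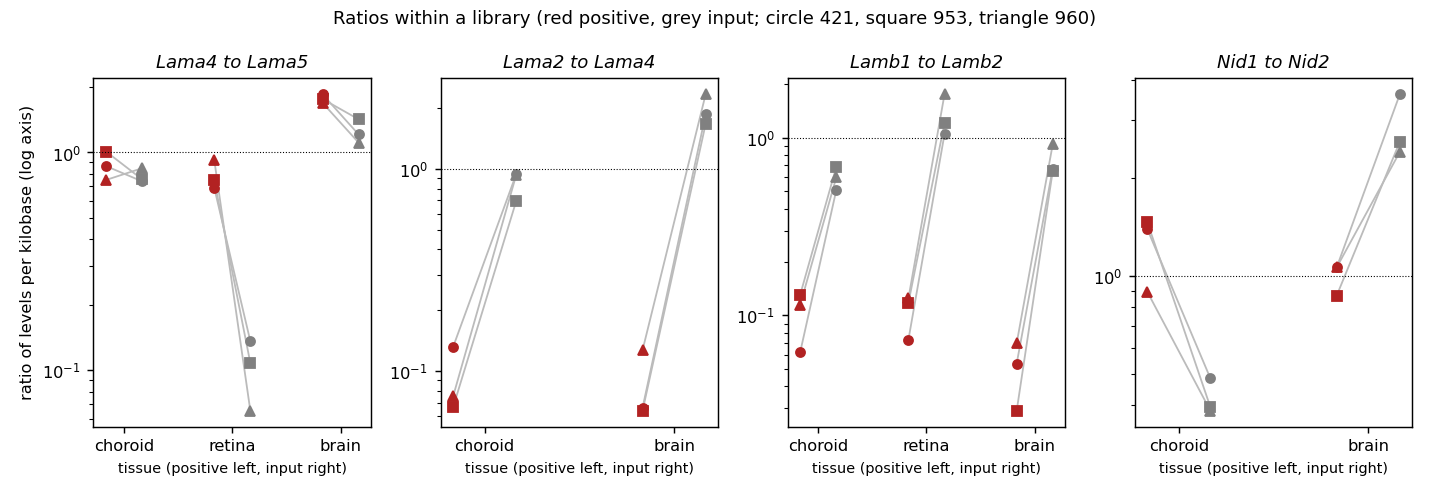
Ratios of levels per kilobase (log axis) within each library, positive (red, left) joined to the input (grey, right) of the same number by a line, for Lama4 to Lama5, Lama2 to Lama4, Lamb1 to Lamb2 and Nid1 to Nid2. Every line for Lamb1 to Lamb2 and Lama2 to Lama4 starts lower in the positive fraction, while the Nid1 to Nid2 lines run in opposite directions in choroid and brain.

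The 2 beta chain genes also differ in the sequence before their start, which is shown because they parted in all 3 tissues, with Hspg2 as the third because it was steeply enriched in each. RefSeq windows (GRCm38.p6) of the 250 bases before the start were matched by symbol for 7 of the 10 genes, with 2 windows for Agrn and none for Lama4, Lamc1 and Nid2. All 3 below are on the plus strand, 5′ to 3′: Lamb2 at chr9:108479612-108479861, Lamb1 at chr12:31265043-31265292 and Hspg2 at chr4:137468553-137468802. Capitals mark a GC box (GGGCGG), an ETS core (CCGGAA) or a TATA box (TATAAA) on either strand.
Lamb2 promoter: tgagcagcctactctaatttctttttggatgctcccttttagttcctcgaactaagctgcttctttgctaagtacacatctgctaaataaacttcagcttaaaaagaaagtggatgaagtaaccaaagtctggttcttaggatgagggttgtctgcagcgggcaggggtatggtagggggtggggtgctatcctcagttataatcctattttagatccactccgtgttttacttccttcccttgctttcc
Lamb1 promoter: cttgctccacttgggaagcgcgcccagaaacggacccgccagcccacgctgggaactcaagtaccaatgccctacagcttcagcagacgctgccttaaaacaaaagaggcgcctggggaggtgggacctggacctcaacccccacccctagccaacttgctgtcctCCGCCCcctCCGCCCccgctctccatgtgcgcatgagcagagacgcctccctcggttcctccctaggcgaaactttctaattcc
Hspg2 promoter: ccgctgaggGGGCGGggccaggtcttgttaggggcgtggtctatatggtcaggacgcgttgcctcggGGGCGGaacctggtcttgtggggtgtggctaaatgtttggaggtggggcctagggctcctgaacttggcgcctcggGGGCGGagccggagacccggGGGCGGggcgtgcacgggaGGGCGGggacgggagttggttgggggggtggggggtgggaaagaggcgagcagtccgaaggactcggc
The Lamb2 window held none of the 3 motifs, 43.6% G+C and 3 CpG, the Lamb1 window 2 GC boxes, 62.0% G+C and 14 CpG, and the Hspg2 window 5 GC boxes, 70.0% G+C and 20 CpG. Over all 32851 windows the medians were 52.4% G+C and 6 CpG, with a GC box in 32.7%, an ETS core in 12.0% and a TATA box in 12.4%. The Lama2 window (47.2% G+C, 0 CpG) and the first Agrn window (83.6% G+C, 35 CpG, 12 GC boxes) are 2 of the windows not printed. GENCODE places the start of Lamb2 at 108479736, of Lamb1 at 31265234 and of Hspg2 at 137468769, each inside its printed window. Part of each window thus lies within the gene as GENCODE annotates it, the largest part for Lamb2. A match in such a window is a description of the letters only.

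The gamma chain Lamc1, the partner of nearly every laminin trimer of vessels, was enriched more modestly. It had 212, 150 and 128 CPM in choroid positive libraries, against 101, 74.1 and 58.1 CPM in inputs (1.08 ± 0.26, adjusted p = 0.0107). In retina it had 123, 66.6 and 46.0 CPM in positive libraries, against 36.9, 34.1 and 32.6 CPM in inputs (1.18 ± 0.30, adjusted p = 0.0190). Neither tissue had an overlap, but the choroid call was lost without both libraries of 953 (adjusted p = 0.0974). In retina it was lost without positive 953 (0.0548), without input 421, 953 or 960 (0.0554, 0.0675 and 0.0732) and without both libraries of 953 (0.168), while without positive 421 the log2 fold change was 0.69 (0.00797). In brain Lamc1 had 51.0, 62.3 and 43.5 CPM in positive libraries, against 31.2, 36.8 and 11.7 CPM in inputs (0.96 ± 0.40, adjusted p = 0.0939). It was called with the replicate number as a block (1.10, adjusted p = 0.0426), by DESeq2 (0.97, adjusted p = 0.0378) and without brain input 960 (0.62, adjusted p = 0.00983).

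The 2 nidogens behaved differently by tissue. Nid1 had 210, 118 and 111 CPM in choroid positive libraries, against 75.9, 68.8 and 47.8 CPM in inputs (1.19 ± 0.28, adjusted p = 0.0105; 1.38, adjusted p = 0.0630 without both libraries of 953). The retina values were 22.1, 9.51 and 7.37 CPM in positive libraries, against 0.394, 0.841 and 0.857 CPM in inputs, which hold 6 to 18 counts each, under the listing minimum that the positive libraries met (4.15 ± 0.50, adjusted p = 0.000413). The fractions did not overlap, and without retina positive 421 the log2 fold change was 3.53 (adjusted p = 5.02e-05). In brain Nid1 had 18.1, 20.1 and 16.5 CPM in positive libraries, against 10.9, 9.49 and 2.60 CPM in inputs (1.21 ± 0.45, adjusted p = 0.0715; 0.83, adjusted p = 0.00124 without brain input 960; DESeq2 1.24, adjusted p = 0.0186).

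Nid2 was enriched in brain, with 13.7, 18.5 and 12.4 CPM in positive libraries, against 2.43, 2.96 and 0.867 CPM in inputs (2.75 ± 0.40, adjusted p = 0.00218). Brain input 960 held 8 counts, so Nid2 was listed for brain through the positive fraction alone. In choroid it had 120, 64.8 and 100 CPM in positive libraries, against 126, 140 and 99.8 CPM in inputs, which overlap (−0.35 ± 0.24, adjusted p = 0.267). In a fit of the choroid and brain libraries alone, chosen after the data were seen, the enrichment of Nid2 was lower in choroid than in brain by a log2 difference of −2.88 ± 0.46 (adjusted p = 0.00113; 9.48% of 11121 genes were called higher and 11.2% lower). The ratio of Nid1 to Nid2 was higher in the positive than in the input fraction in all 3 choroid pairs (log2 difference 1.54) and lower in all 3 brain pairs (−1.50), so that the mean over both was 0.02 (exact permutation p = 0.945, adjusted 0.945). Per kilobase Nid1 made up 54.9 ± 6.73% of both nidogens in choroid positive and 49.8 ± 2.91% in brain positive libraries, and 29.5 ± 2.64% and 73.6 ± 4.10% in the inputs of choroid and brain. Nid2 shares 437 exon bases with Rtraf (listed as 2700060E02Rik) on the opposite strand, and counting by strand is not stated. Rtraf averaged 104 ± 7.68 CPM in choroid positive and 90.9 ± 21.1 CPM in choroid input libraries, and 83.6 ± 3.94 and 76.7 ± 41.9 CPM in brain. Smaller antisense overlaps exist for Lama2 (154 bases, Gm48084) and Nid1 (143 bases, Gm48682).

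Of the proteoglycans, perlecan was the more enriched in each tissue. Hspg2 had 438, 346 and 351 CPM in choroid positive libraries, against 135, 70.4 and 86.9 CPM in inputs (1.96 ± 0.26, adjusted p = 0.000704). In brain it had 76.3, 114 and 55.8 CPM in positive libraries, against 6.86, 5.74 and 3.90 CPM in inputs (3.87 ± 0.34, adjusted p = 0.000229). The lowest positive library was above the highest input in both. Hspg2 was listed for brain through the positive fraction alone, so its adjusted p there is a description. In retina it had 171, 60.6 and 33.9 CPM in positive libraries, against 5.97, 5.89 and 6.05 CPM in inputs (3.88 ± 0.55, adjusted p = 0.00106). Its positive libraries there differed 5.05-fold among themselves, the widest spread of any member in any group, and without positive 421 the log2 fold change was 2.97 (adjusted p = 1.29e-05).

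Agrin, which clusters acetylcholine receptors at the nerve-muscle junction and is made by neurons, glia and endothelium, was less enriched. In choroid it had 84.9, 57.4 and 51.7 CPM in positive libraries, against 90.5, 75.6 and 56.2 CPM in inputs, which overlap (−0.19 ± 0.25, adjusted p = 0.564). The retina values were 392, 219 and 154 CPM in positive libraries, against 102, 93.6 and 105 CPM in inputs (1.35 ± 0.29, adjusted p = 0.00920). The retina groups were apart, with a log2 fold change of 0.90 without positive 421 (adjusted p = 0.00126), and the call was lost without both libraries of 953 (adjusted p = 0.133). In brain it had 170, 189 and 138 CPM in positive libraries, against 125, 134 and 55.4 CPM in inputs (0.66 ± 0.33, adjusted p = 0.159; 0.36, adjusted p = 0.0459 without brain input 960). Per kilobase, Hspg2 made up 76.5 ± 2.45% of the 2 proteoglycans in choroid positive libraries and 41.6 ± 6.76% in choroid inputs. The same share was 14.4 ± 4.38% and 3.17 ± 0.141% in retina, and 20.9 ± 3.48% and 2.99 ± 0.708% in brain.

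Compared per kilobase of exon within a fraction, Lamb2 was the most abundant of the 10 in choroid positive (89.7 ± 8.43 CPM per kilobase) and brain positive libraries (41.0 ± 9.06). In choroid it was followed by Hspg2 (26.6 ± 3.64), Nid1 (24.0 ± 8.99), Lamc1 (21.4 ± 5.70) and Nid2 (19.5 ± 5.77), which lie within their spreads of one another. In brain Agrn was next (21.3 ± 3.33), and Lamc1 (6.86 ± 1.24), Lama4 (6.28 ± 1.44) and Hspg2 (5.77 ± 2.07) were within their spreads of one another. In retina positive libraries Agrn (32.7 ± 15.8) and Lamb2 (25.4 ± 11.5) led and overlapped. The lowest were Lama2 in choroid positive (1.07 ± 0.631) and brain positive (0.502 ± 0.0735) and Nid1 in retina positive libraries (2.13 ± 1.31), the last within the spread of Lamb1 (2.45 ± 0.356). In brain and retina inputs Agrn led, at 13.4 ± 5.52 and 12.8 ± 0.737 CPM per kilobase.

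Between vascular beds, the choroid pull-down held more of most of these transcripts than the brain pull-down, and so did the choroid lysate. In the inputs, the log2 fold changes of choroid over brain were 4.12 for Hspg2, 3.01 for Nid1 and 2.92 for Lamb2. Those of Lama5, Lamb1, Lama4 and Lamc1 were 2.85, 2.60, 2.11 and 1.53. They exceed the pull-down values below for all but Nid1 and Lamc1. Tests of these gaps, as differences of enrichment, follow further on. In a fit of the 9 positive libraries over the 10505 genes listed in all 3 tables, 7 of 8 members were higher in choroid than in brain and Agrn was lower, where 23.1% of all genes were called higher and 23.8% lower. CPM in this paragraph and the next is scaled over those 9 libraries. Nid1 had 224, 124 and 119 CPM in choroid positive libraries, against 18.2, 20.1 and 16.6 CPM in brain positive libraries (3.09 ± 0.35, adjusted p = 1.33e-05). Hspg2 averaged 402 ± 57.2 and 82.4 ± 29.2 CPM (SD, n = 3 each; 2.29 ± 0.46, adjusted p = 0.00134), and Lamb1 56.1 ± 16.3 and 11.5 ± 2.56 CPM (2.27 ± 0.26, adjusted p = 1.22e-05). Lama5 (1.95 ± 0.37), Lamc1 (1.73 ± 0.31) and Lamb2 (1.21 ± 0.28) were higher with no overlap between the 2 tissues. The lowest of the 7 was Lama4 (0.92 ± 0.31, adjusted p = 0.0288), whose call was lost without choroid positive 421 (adjusted p = 0.0934), choroid positive 953 (0.0562), brain positive 421 (0.0523) or brain positive 960 (0.111), and with library-size scaling (0.0619). Agrn averaged 68.7 ± 19.2 CPM in choroid positive and 166 ± 25.3 CPM in brain positive libraries (−1.27 ± 0.31, adjusted p = 0.00452). In the fit of choroid and brain alone (24.2% of genes higher, 24.0% lower) Nid2 (2.73 ± 0.25, adjusted p = 2.41e-05) and Lama2 (1.19 ± 0.37, adjusted p = 0.0264) were also higher in choroid. Among markers in the same comparison, RPE markers were higher in 4 of 4 (median 5.34) and fibroblast markers in 2 of 3 (0.91), while endothelial markers were higher in 1 of 8 and lower in 1 (0.15). Their part was not tested.

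Between the retina and brain pull-downs, 1 of 8 members was called higher in retina and 0 lower, where 32.1% of all genes were higher and 31.0% lower (1 of 8, Lamb2, had an unadjusted p under 0.05 in the lower direction, and DESeq2 called it, adjusted p = 0.0322). The gene called higher was Lama5, with 173, 75.6 and 49.7 CPM in retina positive libraries, against 42.8, 47.3 and 31.5 CPM in brain positive libraries (1.29 ± 0.36, adjusted p = 0.00720; 0.62, adjusted p = 0.0393 without retina positive 421). Endothelial markers were lower in 5 of 8 (median −1.04) and leukocyte markers in 5 of 5 (−3.01), and mural and fibroblast markers were each higher in 2 of 3 (1.95 and 1.94). The other 7 had log2 fold changes of −0.62 to 0.70 with standard errors of 0.25 to 0.44, and were not called. Without retina positive 421, Lamb2 (−1.05, adjusted p = 0.00141) and Nid1 (−1.05, adjusted p = 0.00927) were lower in retina. Without retina positive 960, Lamc1 (0.94, adjusted p = 0.0114) and Agrn (0.96, adjusted p = 0.00825) were higher. Choroid against retina gave 6 of 8 higher, with 32.9% of all genes higher and 39.1% lower, and the inputs gave 7 of 8 higher. In this pull-down comparison Agrn alone was lower. Endothelial markers were higher there in 6 of 8 (median 0.87), leukocyte markers in 5 of 5 (3.87) and RPE markers in 3 of 4 (3.90), and their part was not tested. The steepest was Nid1, at 156 ± 59.2 CPM in choroid positive and 13.7 ± 8.36 CPM in retina positive libraries (3.53 ± 0.37, adjusted p = 2.97e-06; 4.14 without retina positive 421), and Hspg2 had a log2 fold change of 2.11 ± 0.46 (3.01 without retina positive 421). Agrn was lower in choroid (−1.97 ± 0.31, adjusted p = 9.52e-05). Lama4 was higher (0.89 ± 0.32, adjusted p = 0.0234), a call lost with library-size scaling (0.0687) and without choroid positive 421 (0.0867), retina positive 953 (0.0947) or retina positive 960 (0.0909). Lama5 was not called (0.65 ± 0.36, adjusted p = 0.117). It was called with the replicate number as a block (0.79, adjusted p = 0.0176) and without retina positive 421 (1.33, adjusted p = 0.000547).

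**Figure D3:**
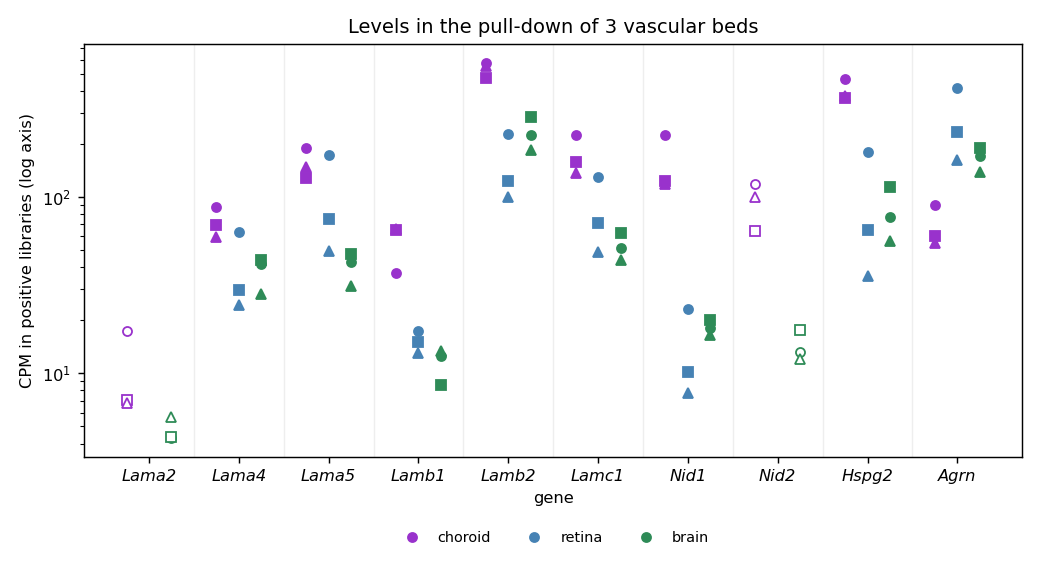
CPM (log axis) in the positive libraries of choroid, retina and brain for each gene; filled symbols are scaled over the 9 positive libraries and open symbols (Lama2 and Nid2) over the 6 of choroid and brain, with circles 421, squares 953 and triangles 960. Choroid is above both other tissues for Nid1, Lamb1, Lamb2 and Hspg2 and below them for Agrn.

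The lysates differed between tissues too, and not always alike. In choroid against brain inputs, 7 of 8 were higher (26.7% of all genes higher, 27.4% lower), led by Hspg2 at 114 ± 40.1 CPM in choroid input and 6.44 ± 1.79 CPM in brain input libraries (4.12 ± 0.30, adjusted p = 4.91e-06), while Agrn was not called (−0.51 ± 0.31, adjusted p = 0.200; −0.82, adjusted p = 0.00289 without brain input 960). In choroid against retina inputs, 7 of 8 were higher (31.9% of all genes higher, 31.9% lower), and Nid1 reached 75.0 ± 17.3 CPM in choroid input and 0.739 ± 0.278 CPM in retina input libraries (6.62 ± 0.57, adjusted p = 1.05e-05). Of the 7, Lamc1 lost its call without choroid input 421 (0.92, adjusted p = 0.0675). In retina against brain inputs, Lama5 was higher (1.60 ± 0.31, adjusted p = 0.00204) and Nid1 (−3.61 ± 0.54), Lama4 (−2.06 ± 0.38) and Lamb2 (−1.16 ± 0.17) were lower, where 24.3% of all genes were higher and 34.7% lower. Nid2 stood at 133 ± 22.2 CPM in choroid input and 2.36 ± 1.23 CPM in brain input libraries in the fit of those 2 tissues (5.72 ± 0.42, adjusted p = 7.95e-05; 24.2% of genes higher, 22.3% lower).

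Whether enrichment differed by tissue was tested by contrasting the positive-over-input log2 ratios in 1 fit of all 18 libraries. Enrichment was lower in choroid than in retina for 6 of 8 members and higher for 0 (18% of all genes lower, 10.9% higher; 0 members had an unadjusted p under 0.05 in the higher direction). The differences were −3.12 ± 0.53 for Lama4, −2.93 ± 0.68 for Nid1 and −2.09 ± 0.35 for Lamb2 (adjusted p = 0.000442, 0.00427 and 0.000407), and −2.59, −2.31 and −1.66 without retina positive 421. Hspg2 (−1.90 ± 0.61), Agrn (−1.51 ± 0.47) and Lamb1 (−0.87 ± 0.31) passed as well, at adjusted p = 0.0272, 0.0243 and 0.0452, and each lost its call without retina positive 421 (adjusted p = 0.109, 0.0827 and 0.105) and without several other libraries. Against brain, enrichment in choroid was lower for Lamb2 (−1.62 ± 0.35, adjusted p = 0.00286) and Hspg2 (−1.73 ± 0.60, adjusted p = 0.0457), 2 of 8, where 12.3% of all genes were lower and 12.2% higher. The Hspg2 call was lost in 9 of its 25 alternatives, all of them single libraries left out (adjusted p up to 0.121). Hspg2 and Lama4 are listed for brain through the positive fraction alone, so they were selected for high enrichment there. Lama4 was not called (−1.09 ± 0.49, adjusted p = 0.115). It was called with the replicate number as a block (−1.15, adjusted p = 0.00527) and without choroid input 960 (−1.46, adjusted p = 0.0495). In retina against brain, enrichment was higher for Nid1 (3.11 ± 0.69, adjusted p = 0.00781) and Lama4 (2.03 ± 0.53, adjusted p = 0.0199), 2 of 8 (8.33% of all genes higher, 4.97% lower). Without retina positive 421 they were 2.50 for Nid1 (adjusted p = 0.0220) and 1.50 for Lama4 (0.0487), and both genes are listed for retina through the positive fraction alone. The Lama4 call was lost without retina input 953 (adjusted p = 0.0560) or 960 (0.0612). The 3 differences share libraries and are not independent. Endothelial markers differed in the same direction: 6 of 8 were less enriched in choroid than in retina (median −2.70) and 6 of 8 less than in brain (median −1.93). Of 3 listed mural markers 3 (median −4.34), and of the 3 fibroblast markers Pdgfra, Col6a1 and Col6a2 2 were (−3.18), less enriched in choroid than in retina. In retina minus brain, mural markers were higher in 2 of 3 (3.14) and fibroblast markers in 3 of 3 (2.58), and endothelial markers were higher in 2 of 8 and lower in 2 (1.15). The part of these cells in the differences was not tested.

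Other basement membrane genes, a list of 32 that includes collagen IV, fibulins and SPARC family members, were split by tissue. In choroid 6 of 26 listed were higher and 14 lower (median −0.96), in retina 12 of 27 higher and 3 lower (0.76), and in brain 13 of 24 higher and 5 lower (1.21). Over all genes the shares higher and lower were 21.1% and 20.9% in choroid, 18% and 13.7% in retina, and 21.2% and 18.3% in brain, and 6 of 26 in choroid lies near the first of these. Tinagl1, a matricellular protein of vessel walls, was higher in choroid (2.34), retina (6.13) and brain (5.54). Egfl7, an endothelium-secreted matrix protein, was higher in all 3 as well (3.73, 4.84 and 4.28). The collagen IV chains that accompany these laminins, Col4a1 (1.73, 2.51 and 2.82) and Col4a2 (1.53, 2.15 and 2.18), were higher in each tissue and are named here after their values were seen. The other collagen IV chains Col4a3 (−2.09) and Col4a4 (−2.31), typical of epithelial basement membranes, were lower in choroid and were not called in retina (−0.11 and 0.33, adjusted p = 0.762 and 0.394). Fn1, the plasma and cellular fibronectin gene, averaged 48.1 ± 14.5 CPM in choroid positive and 78.2 ± 12.1 CPM in choroid input libraries (−0.69, adjusted p = 0.0482), and 360 ± 98.3 and 24.3 ± 3.20 CPM in brain (3.89, adjusted p = 7.22e-05); in retina it was higher too (4.15, adjusted p = 0.00121). Its enrichment differed by −4.40 ± 0.64 between choroid and brain (adjusted p = 0.000104). Fbln2, a fibulin that binds laminin and nidogen, was higher in choroid (1.99), retina (5.17) and brain (1.95), and Sparc, an abundant collagen-binding matricellular protein, was higher in retina (1.31) and brain (1.31) and not called in choroid (0.42, adjusted p = 0.163).

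**Figure D4:**
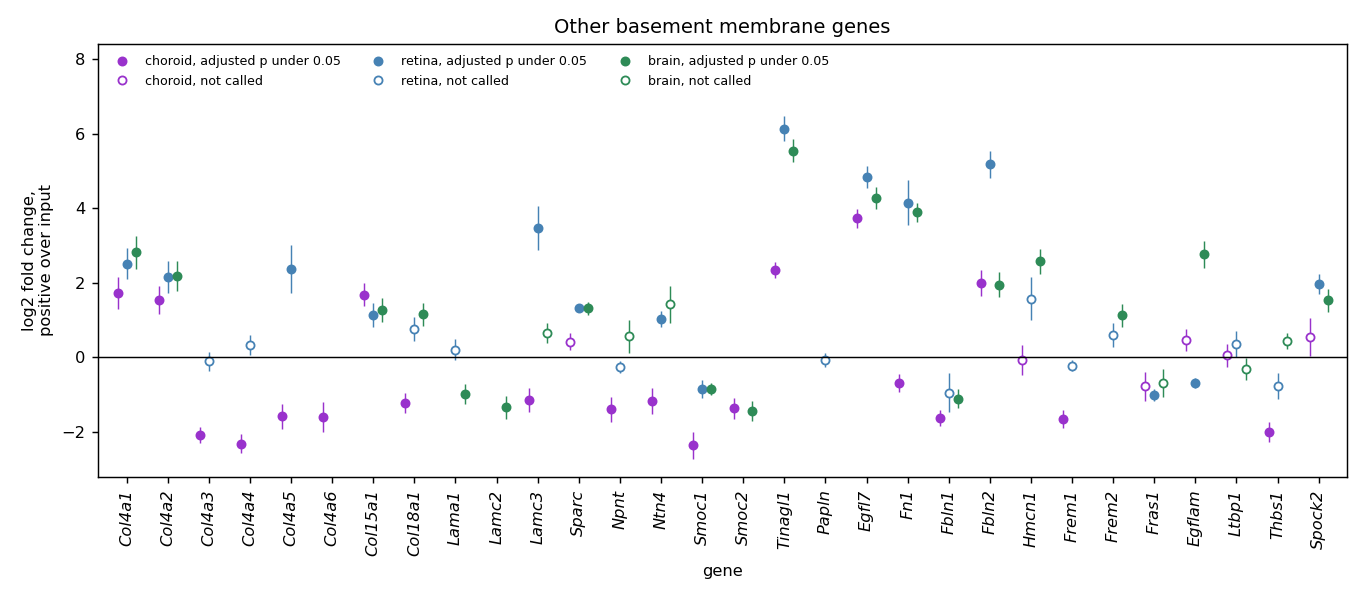
Log2 fold change of positive over input (vertical axis, standard error bars) for the listed genes of the other basement membrane list (horizontal axis) in choroid, retina and brain; filled points are called at an adjusted p under 0.05. Tinagl1 and Egfl7 are filled and high in all 3 tissues, while Fn1 lies at −0.69 in choroid and near 4 in retina and brain.

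Receptors of laminins, agrin and perlecan (24 in the list) were mixed. In choroid 6 of 19 listed were higher and 6 lower (median 0.24), in retina 9 of 20 higher and 3 lower (0.28), and in brain 7 of 20 higher and 8 lower (−0.01). Over all genes the shares higher and lower were 21.1% and 20.9% in choroid, 18% and 13.7% in retina, and 21.2% and 18.3% in brain. The 3 of 20 lower in retina lies near its share. Bcam, the Lutheran receptor that binds the Lama5 chain, averaged 641 ± 62.8 CPM in choroid positive and 131 ± 19.5 CPM in choroid input libraries (2.29), 197 ± 26.3 and 13.9 ± 1.63 CPM in retina (3.82), and 636 ± 122 and 20.7 ± 1.65 CPM in brain (4.94). Of the laminin-binding integrins, Itgb1, the common beta subunit, was higher in choroid (1.22), retina (1.83) and brain (2.24), and the alpha 6 subunit Itga6 in retina (4.71) and brain (3.13), but not in choroid (1.62, adjusted p = 0.0789). Dag1, which encodes dystroglycan, was not called in choroid (−0.30, adjusted p = 0.324), retina (−0.14, adjusted p = 0.487) or brain (−0.01, adjusted p = 0.974). Sdc2, a syndecan, was lower in choroid (−1.83), retina (−0.62) and brain (−1.03). Among 38 enzymes and inhibitors of matrix assembly and turnover, 7 of 33 listed were higher and 4 lower in choroid (median −0.09), 5 of 32 and 4 in retina (−0.07), and 14 of 33 and 6 in brain (0.31). The enzyme shares called higher in choroid and retina, and lower in retina and brain, lie near those over all genes given above. Serpinh1, the collagen chaperone HSP47, was higher in retina (2.72) and brain (2.89) and not called in choroid (0.40, adjusted p = 0.0768). Plod3, a lysyl hydroxylase, was higher in choroid (0.85), retina (1.13) and brain (1.83), and the protease Adamts1 in retina (0.97) and brain (3.05) but not in choroid (0.13, adjusted p = 0.756). Timp3, a protease inhibitor held in the matrix, was higher in retina (1.40) and brain (2.27) and not called in choroid (−0.33, adjusted p = 0.270), and Sulf1, which trims heparan sulfate, was lower in choroid (−1.92), retina (−0.76) and brain (−1.18).

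Genes were ranked by how closely their log2 CPM, centred on the gene's own mean, followed that of 4 members. Over the 6 group means, the nearest to Lama4 of 10187 genes were Ifi203, Pear1 and the arterial connexin gene Gja4, with root mean square differences of 0.330, 0.331 and 0.348. Nearest to Lama5 were Iqgap1 (0.432), Pik3r5 (0.470) and Trim25 (0.508), and nearest to Agrn were Fut8 (0.229), Dock9 (0.233) and Pnpla6 (0.233). For Lama2, over the 4 group means of choroid and brain and 10414 genes, they were Reln (0.124), Zfhx4 (0.129) and Slc12a2 (0.131).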

How the data were processed

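Libraries came from TRAP of Tie2-cre; NuTRAP mice, with 3 positive and 3 input libraries from each of choroid, retina and brain. The authors deposited 1 table per tissue with raw and normalized columns. The raw columns are expected counts as the authors deposited them: 91.461% of retina, 90.199% of brain and 71.986% of choroid values had a fractional part beyond 0.001, so all were rounded before testing. The deposited log2 values, made by the authors, were reproduced within 0.001 for at least 99.987% of values as the raw value over 1 factor per library, relative to the median of the inputs, and were not tested. Per the file headers, listing required a raw value of 50 in every library of one fraction or the other, so genes low in both fractions are missing and genes may enter through 1 fraction. Per the submitters' processing notes, DESeq and mm10 were used; no source used here gives the aligner, the counter or the strand setting. 0 per-sample columns belonged to no sample.

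Tests used edgeR 4.0.16 (quasi-likelihood, TMM, R 4.3.3) on all listed genes, with Benjamini-Hochberg adjustment over all of them. filterByExpr removed 0 genes. Fits within a tissue had 4 residual degrees of freedom, the difference of enrichment over 18 libraries had 12, and the 9 positive or 9 input libraries had 6. Fits across tissues used the 10505 genes in all 3 tables. Scripts were tested on simulated data first. Ratios used exact permutation of labels within tissue, which did not keep same-numbered libraries paired. CPM used TMM-scaled totals, and CPM per kilobase the exon union of GENCODE. Within a tissue, same-numbered libraries come from 1 lysate, per the labels' protocols, and their deviations from the group means correlated at 0.63, 0.27 and 0.53 in choroid (421, 953, 960), 0.09, 0.07 and 0.01 in retina and 0.19, 0.03 and 0.09 in brain; the replicate block was an alternative. Nothing says that a group's libraries are separate litters or days, so p-values measure the spread between these samples. Other alternatives were DESeq2 1.42.0, RLE and library-size scaling, a mean of at least 100 counts, all 18 libraries in one fit, and leaving out each library or number. Named genes were all members and, per list and tissue, the called genes of smallest adjusted p (at most 4) and the most abundant uncalled ones (at most 2), plus those said to be chosen later; values of a named gene in other tissues are given in part. The members and lists were chosen with earlier results of these data known. Figures used matplotlib 3.10.9.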

Additional observations from a re-analysis of the deposited data

Results flagged for a closer look

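Differences of enrichment between tissues that passed an adjusted p under 0.05 (edgeR quasi-likelihood test of the interaction) are listed here as log2 differences, with no explanation weighed. In choroid minus retina they were −3.12 for Lama4, −2.93 for Nid1, −2.09 for Lamb2, −1.90 for Hspg2, −1.51 for Agrn and −0.87 for Lamb1. In choroid minus brain they were −1.62 for Lamb2 and −1.73 for Hspg2, and −2.88 for Nid2 in the fit of those 2 tissues alone, which was chosen after the data were seen. In retina minus brain they were 2.03 for Lama4 and 3.11 for Nid1. The 3 contrasts share libraries. Lama4 and Nid1 are listed for retina, and Lama4, Nid1, Nid2 and Hspg2 for brain, through the positive fraction alone. Their differences that involve those tissues are descriptions.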

How the results depend on the processing

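Of the results on single members, 413 enrichment values kept direction and side of the threshold over the alternatives, 21 lost the call and 9 gained it. Of the enrichment differences 524 kept both, 33 lost and 2 gained the call and 25 changed sign, of the positive-fraction comparisons 336, 9, 15 and 8, and of the input comparisons 356, 1, 3 and 8. The changes of sign were all in values that were not called, though not all lay near 0. The farthest came without retina positive 421: −0.73 for Hspg2 in retina minus brain, and −0.72 for Hspg2 and −0.50 for Lama4 in the positive fraction of retina against brain. Without that library Lama5 in choroid minus retina went from −0.44 to 0.23. In choroid minus brain, library-size scaling gave −0.02 for Lamc1 and −0.13 for Nid1. In retina against brain, the positive fraction gave −0.01 for Lama4 under DESeq2 and under RLE factors, and the inputs gave 0.01 for Hspg2 under both and 0.13 under library-size scaling. For differences of enrichment the replicate block was the number within each tissue. It gave −0.02 for Nid1 (choroid minus brain), −0.17 for Hspg2 (retina minus brain) and 0.04 for Lamc1 (choroid minus retina). Across tissues the numbers are not shown to pair. In the positive fraction of retina against brain the block gave −0.05 for Lama4 and −0.03 for Hspg2. There it called Lamb2 lower (−0.68, adjusted p = 0.0276), and Lamc1 (0.56, adjusted p = 0.0397) and Agrn (0.60, adjusted p = 0.0221) higher. The block also called Lama4 in choroid minus brain (−1.15, adjusted p = 0.00527). With all 18 libraries in one fit, 1 member was lower in choroid and 1 in brain, since that fit holds the 10505 genes in all 3 tables and so not Lama2. In the positive fraction of retina against brain, Lamb2 was also called lower under DESeq2 and RLE factors. Agrn was also called higher there under library-size scaling or the 100-count minimum. The cause of the other changes was not tested. Library-size scaling moved the choroid median of all genes to −0.26, against −0.03 in the main test.

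Leaving out 1 library or number at a time gave these ranges. Lower members numbered 1 to 2 in choroid (906 to 2498 of all genes) and 0 to 2 in brain (164 to 4860), and higher members 4 to 6 in choroid (1066 to 2575), 4 to 7 in retina (722 to 3095) and 5 to 8 in brain (1291 to 4758). Differences called lower numbered 1 to 3 in choroid minus brain (1093 to 2077 of all genes) and 3 to 6 in choroid minus retina (1527 to 2245). In retina minus brain 1 to 2 were higher (428 to 1047). In the positive fraction of retina against brain 1 to 3 were higher (2890 to 3555 of all genes) and 0 to 2 lower (2742 to 3494). In choroid inputs 0 to 1 were lower against brain (2589 to 3634) and against retina inputs (2885 to 4581). For single members, choroid minus brain ran from −0.12 to 0.44 (Lamc1) and −0.37 to 0.34 (Nid1), retina minus brain from −0.10 to 0.65 (Lamc1) and −0.73 to 0.56 (Hspg2), and choroid minus retina from −0.76 to 0.23 (Lama5) and −0.35 to 0.40 (Lamc1). Retina against brain ran from −0.50 to 0.29 (Lama4) and −0.72 to 0.58 (Hspg2) in positive libraries and from −0.09 to 0.14 (Hspg2) and −0.38 to 0.01 (Agrn) in inputs. The ratio of Lama4 to Lama5 stayed within 1.12 to 1.30, of Lama2 to Lama4 within −3.98 to −3.87 and of Nid1 to Nid2 within −0.05 to 0.09. Depth limits, among others, Nid1 and Lama4 in retina inputs, Nid2 in brain inputs and Lama2 in choroid positive libraries, where a library can hold 6, 17, 8 or 16 counts.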
